A study of Mus musculus with 15 samples.

Results

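Mup1, the gene of a major urinary protein, was read by 1 of the 33012 gene probes on the array, the probe deposited under NM_031188.1. It was found by matching the RefSeq accessions in the array files to gene symbols, and it was chosen with its change over age already known, so its levels are given as a description with no test. The study profiled mammary gland from BALB-neuT mice at 4 ages, and the series design gives 5 mice of 10 weeks, 2 of 15 weeks, 4 of 19 weeks and 4 of 22 weeks, each on an array of its own. All of these mice carry an activated rat neu oncogene under a mouse mammary tumour virus promoter, which is active in mammary epithelium, so carcinomas arise in the gland with age. No mouse without the transgene was compared here, so ageing of the gland and tumour progression cannot be told apart. The RNA came from whole mounts of the gland, which hold epithelium, fat, stroma and vessels together.

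Major urinary proteins are small lipocalins, barrel-shaped carriers that bind volatile pheromones and other lipophilic molecules. In the mouse they are made mainly by the liver under growth hormone, thyroid hormone, glucocorticoid and androgen control and are excreted in urine, where they act in scent marking. Mup transcripts are also known from mammary, salivary and lacrimal glands and from fat, and circulating MUP1 has been described as a regulator of glucose and lipid metabolism in mice. The RefSeq table lists 22 Mup genes, all 22 on chromosome 4, and Mup1 lies between Mup9 and Mup10. Many of these copies are nearly identical, and none of the other 21 could be tied to a probe by name. The signal described here may therefore hold RNA of several copies and is called Mup1 after the accession of its probe.

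Mup1 gave the brightest probe of the 311 genes that could be named, and its signal was lower in the late glands. Levels are log2 signals after quantile normalization between arrays. At week 10 the 5 arrays gave 20.84, 20.69, 20.56, 20.67 and 20.11 in replicates 1 to 5 (mean 20.57 ± 0.28, SD, n = 5). At week 15 the 2 arrays gave 20.65 and 20.90 (mean 20.77 ± 0.18, SD, n = 2). The early glands thus lay close together except for replicate 5 of week 10, which was the lowest of the 7. At week 19 the 4 arrays gave 20.08, 19.33, 20.15 and 19.92 (mean 19.87 ± 0.37, SD, n = 4). At week 22 they gave 19.41, 19.58, 19.64 and 19.52 (mean 19.54 ± 0.10, SD, n = 4), the narrowest spread of any age. After quantile normalization the 8 arrays of weeks 19 and 22 ran from 19.33 to 20.15. The 7 arrays of weeks 10 and 15 ran from 20.11 to 20.90. These ranges touched only where replicate 3 of week 19 lay above replicate 5 of week 10. With each array centred on its median instead, the overlap was wider. Replicates 1, 3 and 4 of week 19 (20.13, 19.94 and 20.11) then lay above replicate 5 of week 10 (19.92).

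**Figure D1:**
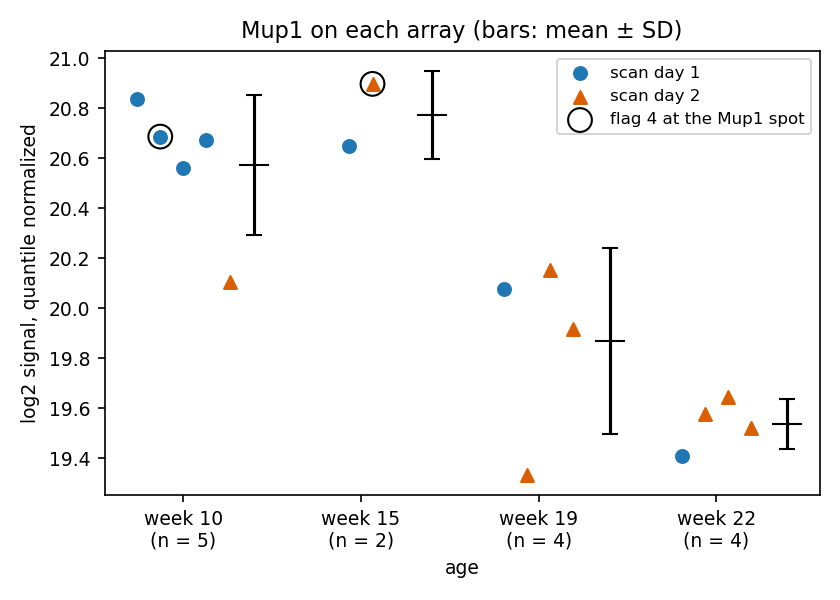
Mup1 log2 signal (quantile normalized, vertical axis) on each of the 15 arrays by age (horizontal axis), with the mean and SD of each age beside its points, marker shape for the scan day, and a ring where the Mup1 spot carries flag 4. All 4 week 22 arrays lie between 19.41 and 19.64, below every array of weeks 10 and 15.

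By mean level the ages ran from week 15 through week 10 and week 19 to week 22. At week 22 Mup1 was lower than at week 10 by a log2 difference of -1.03 ± 0.19 (SE of the fit over all arrays), or 48.8% of the week 10 signal, and the 2 ages did not overlap, with a gap of 0.46 between the nearest arrays. At week 19 the difference from week 10 was -0.70 ± 0.19, or 61.4% of the week 10 signal, and the ranges overlapped by the one pair of arrays named above. At week 15 it was 0.20 ± 0.24, within the spread of the week 10 arrays. Weeks 22 and 19 differed by -0.33 ± 0.21, and the week 22 values lay inside the week 19 range. After quantile normalization, neighbours in this order thus overlapped at every step, while week 22 was separate from both early ages. The comparisons of weeks 15, 19 and 22 with week 10 share the same 5 week 10 arrays.

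Over all probes kept after the filter on dim signals, 12% passed limma's test at week 22 against week 10 (adjusted p under 0.05). Of all kept probes 4.18% passed with a lower and 7.78% with a higher signal at week 22. At week 19 against week 10, 12.5% passed, 5.24% of the kept probes with a lower and 7.28% with a higher signal. Of the 20867 kept probes, 6.80% had a more negative difference than Mup1 at week 22 against week 10, and 13.8% had one at week 19 against week 10. In bulk tissue, fewer cells that make Mup1 and less Mup1 RNA per cell cannot be told apart.

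The Mup1 spot was among the brightest on every array. Ranked from the brightest of the 33012 probes, it stood 9th, 17th, 28th, 18th and 93rd on the week 10 arrays and 20th and 7th on the week 15 arrays. It stood 99th, 260th, 84th and 132nd at week 19, and 242nd, 205th, 189th and 218th at week 22. Quantile normalization sets a level by this rank, so the order of the arrays is the same by both. On the linear scale as deposited, in kilounits of 1000 scanner signal units, Mup1 gave 1814, 1615, 1449, 1542 and 1167 at week 10 and 1411 and 1848 at week 15. The late arrays gave 937, 689, 1449 and 980 at week 19 and 770, 971, 889 and 1163 at week 22. Before any normalization weeks 22 and 10 were thus barely separate, with replicate 4 of week 22 next to replicate 5 of week 10. Replicate 3 of week 19, at 1449, lay above replicate 1 of week 15, at 1411. The SD that the scanner reports for the Mup1 spot was between 1.02% and 3.54% of its signal, which leaves out the error of labelling and hybridisation.

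The brightest probe of an array stood between 2081 and 2988 kilounits. Flag 4, a quality code that the files and labels do not explain, was carried by 25 to 184 probes of an array, and none of these was dimmer than 817 kilounits. The Mup1 spot carried it on replicate 2 of week 10 and replicate 2 of week 15. Its signal was at or above that of the dimmest flag 4 probe of its array on all 7 arrays of weeks 10 and 15, and on 3 of the 8 arrays of weeks 19 and 22. The part of this range of brightness in the size of the difference was not tested. Without the 2 arrays that carry the flag, a choice made after the data were seen, the difference between weeks 22 and 10 was -1.01.

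**Figure D2:**
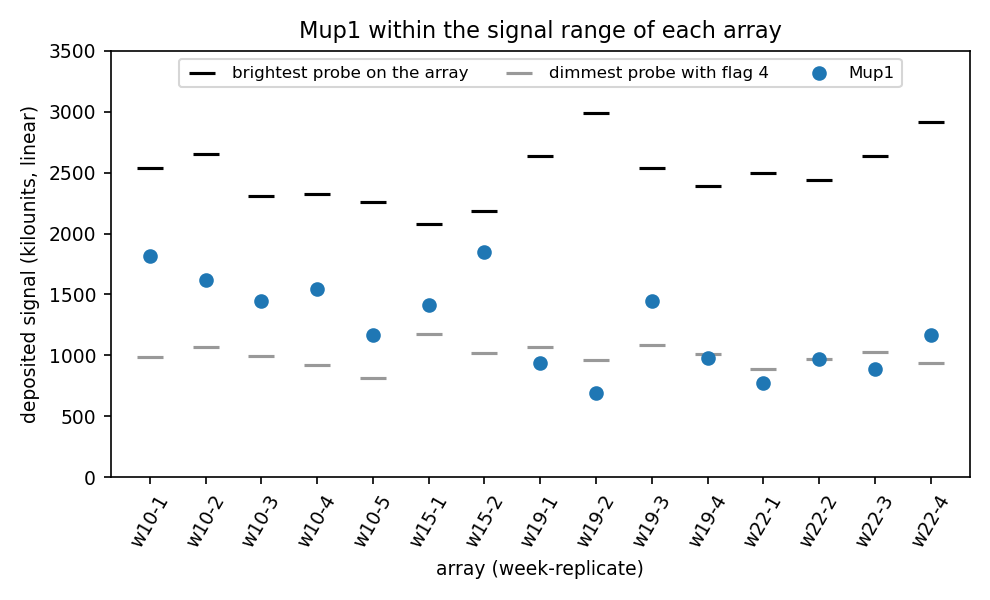
Deposited linear signal in kilounits (vertical axis, from 0) on each array, labelled by week and replicate (horizontal axis): points for Mup1, black bars for the brightest probe and grey bars for the dimmest probe with flag 4. Mup1 lies above the grey bar on all 7 arrays of weeks 10 and 15 and on 3 of the 8 later ones.

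The arrays were scanned on 2 days, and scan day 1 held 4 of the 5 week 10 arrays but 1 array of each other age. With scan day as a term in the fit the difference of Mup1 between weeks 22 and 10 was -0.95, and between weeks 19 and 10 it was -0.62. Within scan day 1 it was -1.28 for week 22 (1 array against 4) and -0.61 for week 19 (1 against 4). Within scan day 2 it was -0.52 for week 22 (3 against 1) and -0.31 for week 19 (3 against 1), and the single week 10 array there is replicate 5, the lowest of its age. Mup1 was lower in the later glands on both days, with a smaller difference on day 2. The serial numbers of the arrays fall in 4 runs, called array series here. Within series 3 the differences were -0.81 for week 22 (1 against 2) and -0.77 for week 19 (2 against 2), and within series 4 they were -1.11 (2 against 3) and -0.54 (1 against 3). With array series as a term they were -1.01 and -0.70. No spread of a single array within a batch can be measured.

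**Figure D3:**
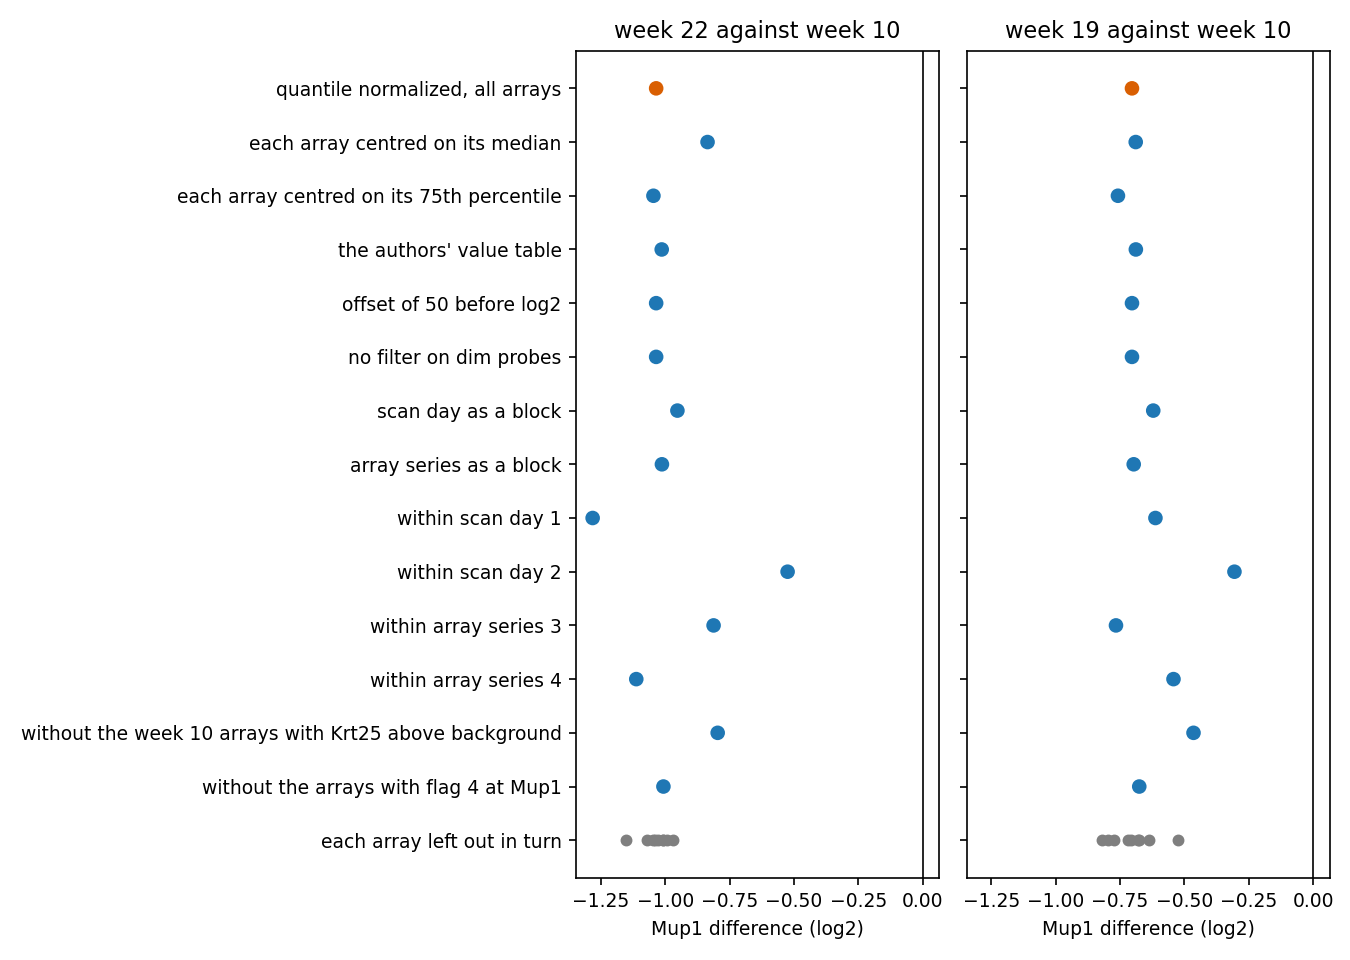
Mup1 log2 difference (horizontal axis) at week 22 against week 10 (left) and week 19 against week 10 (right) under each way of scaling, blocking or subsetting the arrays (rows), in orange as reported, in blue under alternatives and in grey with each array left out in turn. All points lie below 0, and in both panels the smallest difference is the one within scan day 2, -0.52 and -0.31.

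Hair genes, which are markers of skin, stood out on some week 10 arrays and moved with Mup1 there. Krt25, a keratin of the inner root sheath of the hair follicle, was at 18.74, 17.62 and 15.33 in replicates 1, 2 and 4 of week 10, and not above background at 8.32 and 8.06 in replicates 3 and 5. Mup1 was at 20.67 to 20.84 on the 3 arrays with Krt25 and at 20.56 and 20.11 on the other two. The 3 nameable members of the hair and skin list, Krt25, Krt27 and the hair matrix gene Krtap6-1, had a summed level (log2) from 9.60 to 19.84 at week 10, against 9.77 to 10.25 at week 15, 9.92 to 11.35 at week 19 and 9.46 to 10.44 at week 22. None of the 3 passed the test at week 22 against week 10 (limma adjusted p = 0.0982, 0.152 and 0.0723). Leaving out the 3 week 10 arrays on which Krt25 was above background, a choice made after the data were seen, kept 2 week 10 arrays. Against these Mup1 differed by -0.80 at week 22 and by -0.46 at week 19. At week 15 Mup1 was at 20.65 and 20.90, and Krt25, Krt27 and Krtap6-1 were not above background on either array. The part of skin content in the lower Mup1 signal was not tested.

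Fat was represented by a single nameable gene of 18 on the adipocyte list. Aoc3, an amine oxidase abundant in adipocytes and vessel walls, averaged 18.32 ± 0.80 in the 4 glands of week 22 and 19.78 ± 0.49 in the 5 of week 10 (SD), and fell by 1.46 on the log2 scale (limma adjusted p = 0.0377). That call was lost in 15 of 22 alternatives, among them scan day as a term in the fit and each array centred on its median. Its mean, like that of Mup1, was highest at week 15, at 20.24. Within weeks 10 and 22 the 2 genes ordered the arrays differently. In week 10 the arrays with the highest Aoc3, replicates 3 and 5 at 20.45 and 20.13, had the lowest Mup1. Replicate 5 is also the only week 10 array of scan day 2. In week 22 Aoc3 ranged from 17.43 in replicate 4 to 19.14 in replicate 1, while Mup1 stayed between 19.41 and 19.64. The part of fat content in the lower Mup1 signal was not tested.

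**Figure D4:**
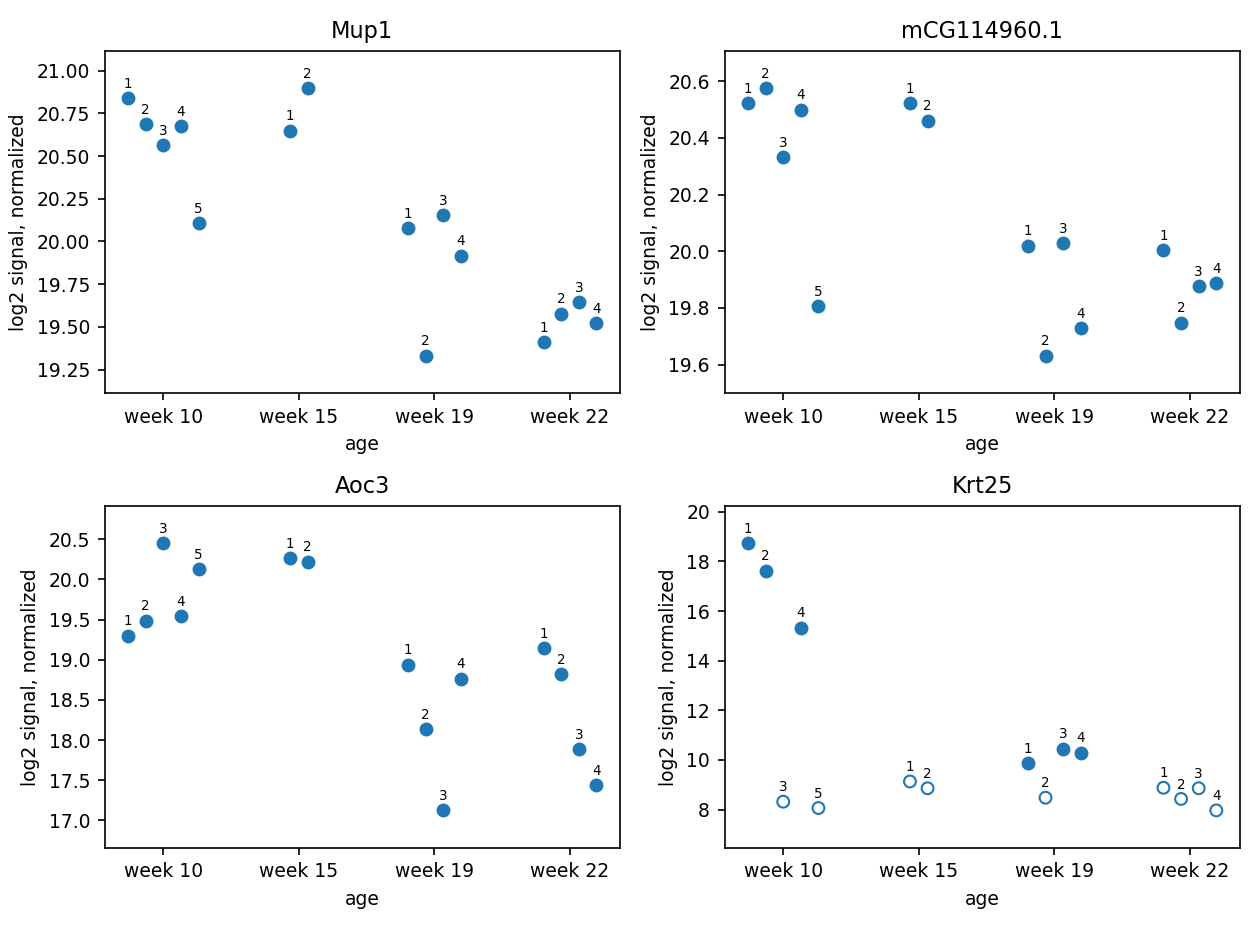
Log2 normalized signal (vertical axes, a scale for each panel) by age (horizontal axes) for Mup1, the unnamed probe mCG114960.1, Aoc3 and Krt25. Each point is an array with its replicate number, open where the probe is not above background. Replicate 5 is the lowest week 10 array for Mup1 and for mCG114960.1, but not for Aoc3, where it is at 20.13.

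Likeness to Mup1 was measured by Pearson's r over the 15 arrays, which share age, scan day and array series. Among the 206 other named genes that were kept, Mapk7, which encodes the kinase ERK5, was most like it (r = 0.86, Spearman rho = 0.78). It averaged 13.00 ± 0.09 in the 4 glands of week 22 and 13.50 ± 0.11 in the 5 of week 10 (SD). Next came the dehydrogenase/reductase gene Dhrs7b (r = 0.76), the dipeptidyl peptidase gene Dpp9 (r = 0.70), the imprinted gene Peg12 (r = 0.68) and 2700081O15Rik (r = 0.67). After the mean of each age was subtracted, r was 0.38 for Mapk7 and between -0.32 and -0.06 for the other 4, so the likeness of these 4 to Mup1 lay in the means of the ages. The genes most opposed to Mup1 were Csprs (r = -0.79), Dcaf12l1 (r = -0.78) and Tceal9 (r = -0.78). Tceal9 averaged 18.32 ± 0.22 in the 4 glands of week 22 and 16.92 ± 0.49 in the 5 of week 10 (SD).

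Among probes without a gene name, mCG114960.1 was closest to Mup1 (r = 0.89, and 0.77 after the mean of each age was subtracted), followed by mCG16752.2 (r = 0.89, and 0.52). The probe mCG114960.1 was almost as bright as Mup1, standing 83rd by mean level where Mup1 stood 77th. It read 20.00, 19.75, 19.88 and 19.89 at week 22, against 20.52, 20.57, 20.33, 20.50 and 19.81 at week 10. Its lowest week 10 array was replicate 5, as for Mup1, and there it lay within the range of week 22. Of the 20866 other kept probes, 51 had r of at least 0.8 with Mup1 and 238 had r of -0.8 or less, with a median r of 0.02.

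Of the hormone signalling genes that act on Mup transcription in liver, 3 of the 24 listed could be named, and none of the 3 passed at week 22 against week 10 (limma), where 12% of all kept probes did. Stat5a and Stat5b encode transcription factors that carry growth hormone and prolactin signals. Stat5a averaged 14.55 ± 0.04 in the 4 glands of week 22 and 15.18 ± 0.41 in the 5 of week 10 (SD), a difference of -0.63 ± 0.22 (limma adjusted p = 0.0783). Its week 22 arrays ran from 14.50 to 14.60 and lay below all week 10 arrays, which began at 14.81. The share of all probes without such overlap was not counted. At week 15, where the mean of Mup1 was highest at 20.77, Stat5a averaged 14.60 (n = 2). That was a difference of -0.58 from week 10 (limma adjusted p = 0.434). Stat5b differed by -0.29 ± 0.16 at week 22 (limma adjusted p = 0.263). Cebpb, a transcription factor of liver, fat and mammary epithelium, rose at week 19 against week 10 (0.72 ± 0.19, limma adjusted p = 0.0249) and differed by 0.52 ± 0.19 at week 22 (limma adjusted p = 0.0929). The week 19 call of Cebpb was lost in 10 of 22 alternatives, among them scan day or array series as a term in the fit. At week 19 Stat5a and Stat5b differed by -0.47 ± 0.22 and -0.09 ± 0.16, and neither passed (limma adjusted p = 0.174 and 0.763). The part of these 3 genes in the level of Mup1 at any age was not tested.

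Liver RNA could be checked only in part. None of the 22 hepatocyte genes listed and none of the 22 other lipocalins had a nameable probe, and the same held for the salivary and lacrimal gland and skeletal muscle lists. Of 4 liver genes chosen after the names on the array were known, G6pc and Dio1 did not pass the filter on dim signals. Fgf21, a hepatic hormone gene also expressed in fat, differed by -0.68 ± 0.52 at week 22 against week 10 (limma adjusted p = 0.43) and was above background on 1 of 4 arrays at week 22 and 3 of 5 at week 10. Pemt, an enzyme of phosphatidylcholine synthesis, differed by -0.23 ± 0.20 (limma adjusted p = 0.487).

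Markers of secretory epithelium, leukocytes and lymphoid tissue were higher at the ages at which Mup1 was lower. All 4 nameable milk protein genes, which mark secretory mammary epithelium, rose at week 22 against week 10 (median log2 difference 4.46, against -0.01 over all kept probes), where 7.78% of all kept probes passed with a higher signal. Csn1s2b, Csn2 and Wap were hardly detected in the early glands. For each of these genes 1 of 5 week 10 arrays and 0 of 2 week 15 arrays gave a signal above background. They met the filter on dim signals only through weeks 19 and 22, the ages at which they were high. The size of their differences thus rests on week 10 levels that were mostly not above background. The count and median of the milk protein genes beside those of all kept probes are therefore a description only. Without the filter 4 of the 4 also passed (limma). With scan day as a term in the fit 2 of the 4 milk protein calls were lost, those of Csn1s2b and Wap (limma adjusted p = 0.07 and 0.0692), and that of Wap was lost in 10 of 22 alternatives. Within scan days 1 and 2, 0 and 1 of the 4 passed, with medians of 3.64 and 4.47. At week 19, where 7.28% of all kept probes passed with a higher signal, 2 of the 4 milk protein genes rose (median 2.75, against -0.02 over all kept probes), and none passed within either scan day. Of the 6 nameable leukocyte and lymphoid genes, 4 rose at week 22 (median 1.93) and 6 at week 19 (median 3.32). One of the 4, the lymphoid chemokine gene Ccl21a, lost its week 22 call in 15 of 22 alternatives, among them scan day (limma adjusted p = 0.0949) or array series (limma adjusted p = 0.0971) as a term in the fit. Its signal may include RNA of near-identical copies such as Ccl21b, which is counted separately among the 6. The 6 also include the chemokine gene Ccl19, so they are not all leukocyte genes. All 6 still passed at week 19 with either term. Within scan days 1 and 2, each with 1 array at one of the ages, their medians were 1.222 and 1.636 at week 22. At week 19 these medians were 3.455 and 2.901. The leukocyte and lymphoid calls did not all hold within either scan day, at week 22 or at week 19. These recounts of both lists were chosen after the data were seen. Of the 4 called at week 22, Bcl2a1b, a survival gene of leukocytes, averaged 15.71 ± 0.16 in the 4 glands of week 22 and 13.96 ± 0.36 in the 5 of week 10 (SD), a difference of 1.75 ± 0.24 (limma adjusted p = 0.000678). Neither of the 2 nameable epithelial genes passed, with 1.33 ± 0.45 for the keratin gene Krt23 and 0.28 ± 0.16 for the galectin gene Lgals7 (limma adjusted p = 0.0708 and 0.274). The part of these differences in the lower Mup1 signal was not tested.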

How the data were processed

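Digoxigenin-labelled cRNA of 15 mammary glands was hybridised to single-colour Applied Biosystems AB1700 mouse arrays and read by chemiluminescence, per the labels' protocols. The deposited files give, per the file headers, 4 columns for each probe that were used here: a linear signal intensity, the SD of that signal, a score of signal over noise, and a quality flag. How background was handled is not given in the sources. The authors' deposited value table holds log2 values quantile normalized between arrays. Each of its columns orders the probes like that array's signals (lowest Spearman correlation 1.0), with a median of 10.03, so direction and scale are settled. The offset behind it is unknown, and it served as an alternative.

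Signals of 33012 probes, without 303 control spots, were taken to log2 and quantile normalized. A probe was above background with a ratio of signal to noise of 3 or more and a flag under 5000. The 20867 probes that met this on 50% or more of the arrays of any age were kept. Between 46.1% and 53.9% of the probes of an array reached that ratio, the median signal ran from 650.2 to 1626 units, and the number of arrays limits the precision. limma 3.58.1 (R 4.3.3; two-sided moderated test from lmFit and eBayes, Benjamini-Hochberg over all kept probes) was fitted to all arrays with age as 4 levels, and was tested on simulated data. The arrays of all ages share one estimate of the spread. No 2 arrays held the same values (highest correlation 0.971).

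RefSeq accessions were matched to the gene table of mouse assembly GRCm38.p6, for names and gene order only, which named 317 probes. The brightest kept probe stood for a gene. The genes named were Mup1, the 5 named genes most like it and the 3 least like it, the 5 most like it within ages, up to 4 called members of a list or else those with the smallest p, all kept members of the hormone, adipocyte, hair and liver lists, and 2 unnamed probes. Members and lists were chosen with earlier results of these data known. No sequence of Mup1 was used here. Replicates are numbered in order of deposit. Alternatives were other scalings, the authors' table, an offset of 50, no filter, scan day and array series as terms or subsets, and arrays left out.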

Additional observations from a re-analysis of the deposited data

Results flagged for a closer look

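Of the groups of values examined for a lone far value, 1 stood out. Krtap6-1, a hair gene, was at 7.76 in replicate 3 of week 22, against 8.14 to 8.19 on the other 3 arrays of that age. The probe was not above background on any of these 4 arrays. Chance alone gives such a value in about 1 group of 20, and 93 groups were examined. No Mup1 value stood apart in this way at week 10, 19 or 22.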

How the results depend on the processing

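The difference of Mup1 between weeks 22 and 10 was below 0 under all 13 alternatives, which ran from -1.28 to -0.52, and with each of 9 arrays left out, from -1.15 to -0.97. It moved by more than the SD within ages (0.27) only within scan day 2 (-0.52). Between weeks 19 and 10 it was also below 0 under all 13, from -0.77 to -0.31 (within scan day 2, again the one that moved by more than that SD), and from -0.82 to -0.52 with each array left out. Some of these alternatives could hardly move the Mup1 difference. Dropping the filter leaves its values as they are, an offset of 50 is small beside its signal, and the authors' table is also quantile normalized. At week 22 they gave -1.03, -1.03 and -1.01. Centring each array on its median placed the median of all kept probes at 0.14 for week 22 against week 10 and Mup1 at -0.84. Under that scaling 2674 probes were higher and 500 lower, against 1623 and 872 after quantile normalization. The direction at week 15 against week 10 was not stable. It was -0.043 within scan day 1 and 0.79 within scan day 2 (1 array of week 15 each), 0.47 with centring on the median and 0.47 on the 75th percentile, and 0.07 to 0.32 with an array left out. Between weeks 22 and 19 Mup1 differed by -0.67 within scan day 1 and by -0.046 within array series 3, and by -0.51 to -0.24 with an array left out.

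Counts of probes called by limma were 2495 at week 22 against week 10, 2612 at week 19 against week 10, 7 at week 15 against week 10 and 0 at week 22 against week 19, the last with 1527 probes at an unadjusted p under 0.05. The week 22 count was 4 and 682 within scan days 1 and 2, 0 and 450 within array series 3 and 4, and 1211 to 2475 with an array left out, lowest without replicate 4 of week 22 and 1519 without replicate 3. The week 19 count was 1683 with scan day as a term, 51 and 566 within the scan days, 196 and 103 within the series, and 1415 to 2752 with an array left out, lowest without replicate 3 of week 19 and 1652 without replicate 2. The week 15 count was 2 with centring on the 75th percentile, 1 with array series as a term, 327 and 0 within the scan days, 0 within series 4, and 3 to 943 with an array left out, the highest without replicate 2 of week 15. It was 849 without the arrays with flag 4 and 0 without the week 10 arrays with Krt25. For week 22 against week 19 it was 3 with centring on the median, 1 with the offset, 1 with scan day as a term, 8 within scan day 1, 2 without the flag 4 arrays and 0 to 13 with an array left out. The subsets hold fewer arrays, and the cause of the other changes was not tested.

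Subtracting the mean of each age turned the sign of Mup1's r with Dhrs7b (-0.059), Dpp9 (-0.19), Peg12 (-0.15), 2700081O15Rik (-0.32), Tceal9 (0.23), Zfp60 (0.70), Wap (0.70) and Tlr7 (0.61). Zfp60, Wap and Tlr7 were picked for a high r after that step, and the others for an extreme r without it. These turns of sign can follow in part from that choice. No paired analysis was possible because each array holds a different mouse of a single age.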

Other observations

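Among the 200 kept probes with the highest mean signal, whose median difference was 0.10 at week 22 against week 10, 4 had a more negative difference than Mup1. At week 19 against week 10, 7 of these 200 did, and their median was 0.05. The median over all kept probes was -0.01 and -0.02 in the same comparisons.

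After the mean of each age was subtracted, the named genes that ran closest to Mup1 over the 15 arrays were the zinc finger gene Zfp60 (r = 0.70), the whey protein gene Wap (r = 0.70), the RNA sensor gene Tlr7 (r = 0.61), Krt25 (r = 0.60) and Fxr2 (r = 0.59). Without that step their r was -0.26, -0.48, -0.09, 0.58 and 0.08. All 5 were dim by mean level, with Wap, Krt25 and Fxr2 above background on 6 of 15 arrays, Zfp60 on 9 and Tlr7 on 12. Krt25 was nonetheless bright in replicates 1, 2 and 4 of week 10, at 18.74, 17.62 and 15.33. The mean level of Wap was higher at week 22 (10.89 ± 0.42, n = 4) than at week 10 (9.23 ± 0.68, n = 5), the opposite of Mup1.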
